A study of Homo sapiens with 2 samples.

Results

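Polycomb and DNA methylation genes encode the proteins that keep genes silent through histone and DNA marks. They were followed in Huh7 cells, a human hepatoma line, in 1 library from cells transfected with an shRNA against E2F6 and 1 library from cells with a control shRNA. E2F6 is a repressor of the E2F transcription factor family that works in part within a polycomb complex of its own. The 44 members are subunits of polycomb repressive complexes 1 and 2 (PRC1 and PRC2), the H3K27 demethylases, the BAP1 complex, and DNA methylation and HP1 genes. Subunits particular to the E2F6 complex were left out. RYBP and YAF2, which several forms of PRC1 share, were kept, so not every member lies outside that complex. They were chosen by name, and all 44 were found among the 21225 genes of both tables. The values are FPKM, fragments per kilobase of exon scaled to the library total, and with 1 library per group no difference has a replicate check or a p-value. The labels do not say whether the cells were a pool or a clone, or how long after transfection RNA was taken. In bulk RNA, fewer cells with a transcript and less of it in each cell cannot be told apart.

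As background, PRC2 methylates histone H3 on lysine 27 and PRC1 attaches ubiquitin to histone H2A, and the BAP1 complex takes that ubiquitin off again. KDM6A and KDM6B remove the lysine 27 methyl marks. DNMT1 with UHRF1 copies DNA methylation after replication, DNMT3A and DNMT3B set it anew, and SETDB1, TRIM28 and the HP1 proteins act on the separate lysine 9 mark of heterochromatin.

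E2F6 itself, the check of the knockdown label, had 0.997 FPKM (134 fragments) with the E2F6 shRNA and 2.54 FPKM (397 fragments) with the control shRNA. That left 39.3% of its control level, with a 95% counting interval of 32.1 to 47.9%, and a difference of -0.82, short of the rule of size given below. The totals behind the FPKM were 14724835 fragments for the E2F6 shRNA library and 17139209 for the control shRNA library. All 10 hepatocyte and hepatoma markers were expressed, summing to 2501 FPKM with the E2F6 shRNA and 3406 FPKM with the control shRNA. AFP alone held 1064 FPKM with the E2F6 shRNA and 1721 FPKM with the control shRNA. Of the 10 differences 7 were below 0 and 3 above, those of GPC3 (0.37), TTR (0.29) and APOA1 (0.24). ALB and APOB were called lower by that rule of size. After the correction for GC content described below, ALB was at -0.83 and APOB at -1.08. Markers of other cell types were not at 0 throughout. The 7 of 10 fibroblast and stellate cell markers found summed to 63.1 FPKM with the E2F6 shRNA and 42.1 FPKM with the control shRNA. The 4 of 6 macrophage markers summed to 135 FPKM with the E2F6 shRNA and 242 FPKM with the control shRNA, nearly all of it LYZ. The 2 of 6 T and B cell markers found, CD3D and CD79A, summed to 7.84 FPKM with the E2F6 shRNA and 9.93 FPKM with the control shRNA, and the 2 of 8 endothelial markers found, PECAM1 and CLDN5, to 2.86 and 1.53 FPKM in the same order. CD79A, CLDN5 and ACTA2 were at 0 with the control shRNA. The part of other cell types in the differences was not tested.

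Most of the silencing machinery differed little between the 2 libraries, and a pair of genes stood out. DNMT3B, a DNA methyltransferase, was higher in the E2F6 shRNA library, and ASXL2, a partner of the H2A deubiquitinase BAP1, was lower. Both fell short of the rule of size once the trend of all genes with GC content was removed (0.92 and -0.97), and ASXL2 was also not called under quantile normalization (-0.99) or with a minimum of 5 FPKM. A gene was called by size, with a log2(FPKM + 1) difference of at least 1 and a mean of at least 1 FPKM. By that rule 1 of the 40 members that reached this mean was higher, against 1.17% of all 11574 such genes, and 1 was lower, against 2.06%. At this size of list these shares are near the background. The remaining 38 were not called, and CBX7, PHC1, YAF2 and AUTS2 were below 1 FPKM on average. Differences were below 0 in 25 of the 40, a share of 62.5%, against 50.3% of all genes, and above 0 in 15, against 49.7%. Their median was -0.09, against -0.002 over all genes. The pseudocount of 1 makes the difference of a low gene smaller than its log2 ratio, so ratios of the FPKM values themselves are given beside it.

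**Figure D1:**
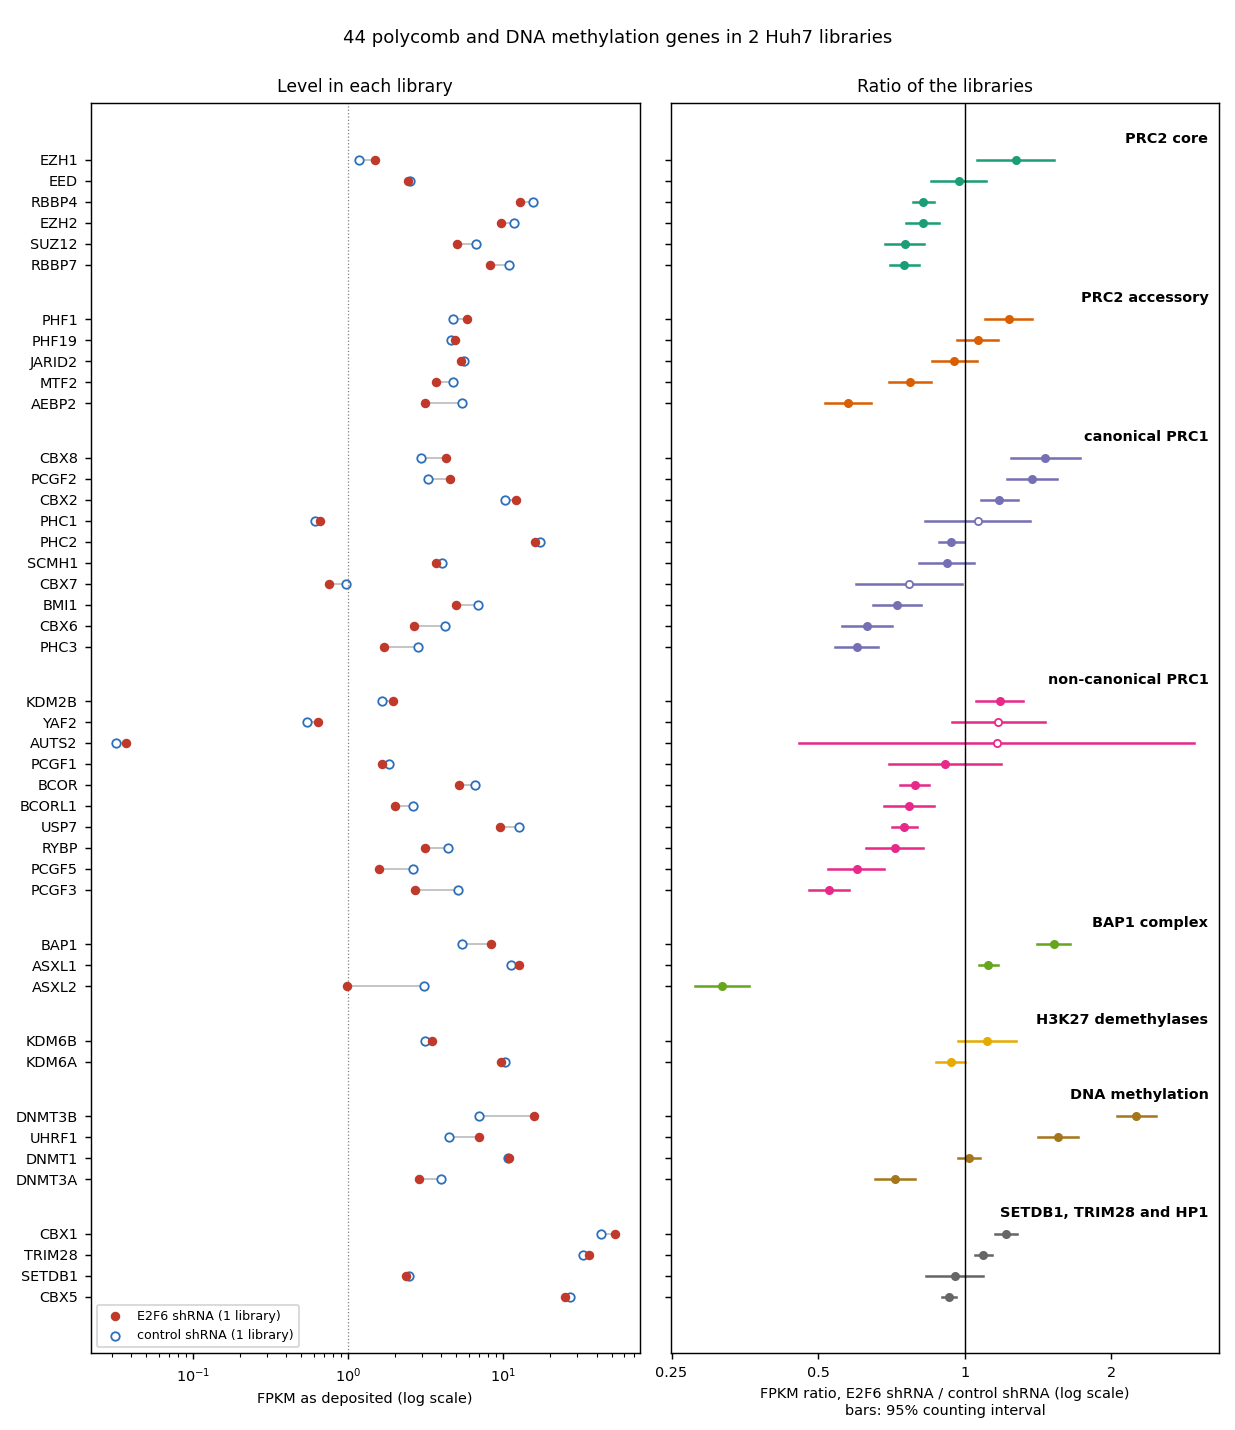
The left panel plots the FPKM of each of the 44 genes in the E2F6 shRNA library (filled) and the control shRNA library (open) on a log scale, with 1 FPKM dotted. The right panel plots the ratio of the libraries with its 95% counting interval, open points being genes below 1 FPKM on average. DNMT3B at 2.25 and ASXL2 at 0.318 lie farthest to either side.

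The letters of E2F-type binding sites were looked for in promoters because E2F6 binds such DNA and several members are textbook E2F targets. Windows of 300 bases, 250 before and 50 after each RefSeq start (GRCh38.p14), were found for 40 of the 44 members. They were searched on both strands for TTTCCCGC, TTTGGCGC, TTTCGCGC, TTTGCCGC and TTCCCGCC, of which the first and last can overlap. At least 1 match was found in 8 of 40 members (20%), against 11.7% of 7692 expressed protein-coding genes and 6.67% of all 27305 genes with a window. Members have more windows per gene, 72 for 40 genes against 10990 for 7692, and by window the shares were 12.5% and 8.90%. The 8 were UHRF1, DNMT1, EZH1, EZH2, SUZ12, AEBP2, MTF2 and PHF19, which all serve DNA methylation maintenance or PRC2. Their differences lay between -0.64 and 0.54 with 4 of 8 below 0 and a median of -0.12, against a median of -0.10 for the 28 expressed members with a window and no match. Matches are letters in a window, not sites shown to be bound. The only window for DNMT3B is set on a RefSeq start 17467 bases inside the gene and holds 3 CG pairs, and it is not printed.

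Below are windows of UHRF1, DNMT1, EZH2 and SUZ12 that hold matches (in capitals). Also given is 1 of the 2 windows of ASXL2, the lowest member, neither of which holds a match. They lie at chr19:4909251-4909550 on the plus strand for UHRF1, chr19:10194904-10195203 on the minus strand for DNMT1, chr7:148884242-148884541 on the minus strand for EZH2, chr17:31936757-31937056 on the plus strand for SUZ12 and chr2:25878438-25878737 on the minus strand for ASXL2, all GRCh38.p14 and written 5′ to 3′ along the gene.
UHRF1: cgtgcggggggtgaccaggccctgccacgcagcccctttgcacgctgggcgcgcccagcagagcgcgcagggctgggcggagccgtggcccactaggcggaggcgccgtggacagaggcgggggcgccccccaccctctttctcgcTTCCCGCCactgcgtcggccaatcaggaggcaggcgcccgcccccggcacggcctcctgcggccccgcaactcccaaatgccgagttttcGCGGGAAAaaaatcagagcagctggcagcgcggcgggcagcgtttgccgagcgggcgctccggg
DNMT1: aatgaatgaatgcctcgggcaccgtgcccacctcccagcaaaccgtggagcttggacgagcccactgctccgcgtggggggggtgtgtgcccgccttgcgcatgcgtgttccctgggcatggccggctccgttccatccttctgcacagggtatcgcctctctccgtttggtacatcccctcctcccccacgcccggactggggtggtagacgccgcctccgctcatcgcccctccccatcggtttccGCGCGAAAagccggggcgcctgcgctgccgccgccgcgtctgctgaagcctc
EZH2: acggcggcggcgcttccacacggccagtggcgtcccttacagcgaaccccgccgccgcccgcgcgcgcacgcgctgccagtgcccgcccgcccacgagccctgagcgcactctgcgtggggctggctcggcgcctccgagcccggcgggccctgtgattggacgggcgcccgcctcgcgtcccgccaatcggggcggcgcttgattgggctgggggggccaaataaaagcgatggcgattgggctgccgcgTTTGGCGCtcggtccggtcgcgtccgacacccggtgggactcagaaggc
SUZ12: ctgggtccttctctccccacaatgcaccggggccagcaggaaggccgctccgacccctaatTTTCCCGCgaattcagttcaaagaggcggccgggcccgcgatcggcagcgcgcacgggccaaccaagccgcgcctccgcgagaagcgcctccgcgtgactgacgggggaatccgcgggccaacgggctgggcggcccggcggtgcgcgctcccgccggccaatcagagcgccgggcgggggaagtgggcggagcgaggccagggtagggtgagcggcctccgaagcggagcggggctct
ASXL2: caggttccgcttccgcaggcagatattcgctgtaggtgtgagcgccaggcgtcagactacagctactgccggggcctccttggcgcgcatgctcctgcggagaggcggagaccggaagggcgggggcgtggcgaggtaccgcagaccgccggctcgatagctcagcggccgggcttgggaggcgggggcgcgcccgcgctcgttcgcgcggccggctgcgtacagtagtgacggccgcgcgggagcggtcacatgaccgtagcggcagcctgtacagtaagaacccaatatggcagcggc
The UHRF1 window, 1 of 3, is set on a RefSeq start 6421 bases inside the gene. It holds a pair of matches, TTCCCGCC and, on the opposite strand, TTTCCCGC, and another of the 3 holds TTTCGCGC. In DNMT1 the match TTTCGCGC is on the opposite strand and spans the start, and in EZH2 TTTGGCGC follows the start directly. The ASXL2 window printed is the one farther upstream of 2 and holds 39 CG pairs without a match. The other ASXL2 window holds 2 CG pairs and no match. The median was 30 over the members' windows and 26 over those of expressed protein-coding genes.

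The DNA methylation genes parted. DNMT3B was at 15.7 FPKM (1362 fragments) in the E2F6 shRNA library and at 6.98 FPKM (705 fragments) in the control shRNA library. That is a ratio of 2.25 (2.05 to 2.47) and a difference of 1.06, higher than in 99.0% of the expressed genes. The other de novo enzyme, DNMT3A, had 2.84 FPKM in the E2F6 shRNA library, against 3.96 FPKM in the control shRNA library, a ratio of 0.719 (0.654 to 0.790), so the pair lay on opposite sides of 1. UHRF1, which recognises hemimethylated DNA and brings in DNMT1, had 6.94 FPKM in the E2F6 shRNA library, against 4.46 FPKM in the control shRNA library. Its ratio was 1.56 (1.42 to 1.71), while its difference of 0.54 did not pass the rule of size. After correction for GC content UHRF1 was at 0.39, and DNMT3A at -0.52 against -0.37 without it. The maintenance enzyme DNMT1 had 10.9 FPKM in the E2F6 shRNA library, against 10.7 FPKM in the control shRNA library, and its interval of 0.970 to 1.08 includes 1.

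The intervals here and below come from whole fragments recovered from the FPKM values and cover counting error only. Summed over genes, the recovered fragments came to 15316448 with the E2F6 shRNA and 17873626 with the control shRNA. Both sums are above the totals behind the FPKM given above, and the reason was not tested. Where a recovered number is too large, its interval is too narrow. Without molecular identifiers, several reads may come from 1 molecule, and the spread between cultures is unknown. At this depth counting error is small, and among 11532 genes with recovered fragments the interval lay below 1 for 34.4% and above 1 for 33.2%. Among the 40 expressed members it lay below 1 for 19, above 1 for 12 and included 1 for 9. An interval that leaves out 1 therefore says only that the 2 libraries differ by more than counting noise.

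In the BAP1 complex, ASXL2 was at 0.986 FPKM (321 fragments) with the E2F6 shRNA and at 3.10 FPKM (1176 fragments) with the control shRNA. It was 3.15-fold lower (2.78 to 3.57), with a difference of -1.05, and 1.74% of the expressed genes had a lower one. The catalytic subunit BAP1 was at 8.30 FPKM with the E2F6 shRNA and 5.45 FPKM with the control shRNA, a ratio of 1.52 (1.41 to 1.65) and a difference of 0.53 that is not past the rule. ASXL1, the close relative of ASXL2 that takes the same place beside BAP1, was at 12.6 and 11.3 FPKM in the E2F6 shRNA and control shRNA libraries, a ratio of 1.12 (1.07 to 1.17). Fragments of ASXL1 came out whole at 2 lengths, as 3826 and 3985 or as 7652 and 7970 in that order, and the lower pair was used. The same choice was made for other members, listed below. The complex thus held the lowest member of the whole set beside one of the highest. After correction for GC content the difference of BAP1 was 0.37.

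The PRC2 core had 5 of 6 differences below 0, none of them past the rule, with a median of -0.26. EZH2, the main methyltransferase, had 9.64 FPKM in the E2F6 shRNA library, against 11.8 FPKM in the control shRNA library, a ratio of 0.819 (0.758 to 0.884). EZH1, its less active relative, was the exception above 0, at 1.49 FPKM in the E2F6 shRNA library and 1.17 FPKM in the control shRNA library (1.27, 1.06 to 1.53). SUZ12, the scaffold of the complex, had 5.05 FPKM in the E2F6 shRNA library, against 6.72 FPKM in the control shRNA library, a ratio of 0.752 (0.685 to 0.826). EED, which reads the mark that PRC2 makes, was at 2.42 and 2.49 FPKM in the E2F6 shRNA and control shRNA libraries, with an interval that includes 1. RBBP7 and RBBP4 are histone-binding proteins shared with other complexes. RBBP7 was at 8.18 FPKM with the E2F6 shRNA and 10.9 FPKM with the control shRNA, and RBBP4 at 12.8 FPKM with the E2F6 shRNA and 15.6 FPKM with the control shRNA. RBBP4 has 6 processed pseudogenes named after it, so its reads may be divided. Per merged exon length, a scale explained below, RBBP4 was highest and EZH1 lowest of the 6 in both libraries. After correction for GC content 3 of the 6 differences were below 0, with a median of -0.02.

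PRC2 is steered by accessory subunits, and among these AEBP2 differed most. It was at 3.13 FPKM with the E2F6 shRNA and 5.43 FPKM with the control shRNA, 1.73-fold lower (1.56 to 1.94), with a difference of -0.64. JARID2, which sits with AEBP2 in the same form of PRC2, was at 5.33 FPKM with the E2F6 shRNA and 5.61 FPKM with the control shRNA, and its interval includes 1. The polycomb-like proteins PHF1, MTF2 and PHF19 belong to the other form and bind CpG-rich DNA. PHF1 was at 5.85 FPKM with the E2F6 shRNA and 4.76 FPKM with the control shRNA (1.23, 1.10 to 1.37). MTF2 was at 3.68 FPKM with the E2F6 shRNA and 4.77 FPKM with the control shRNA (0.773, 0.700 to 0.852). PHF19 was at 4.88 and 4.598 FPKM in the E2F6 shRNA and control shRNA libraries, with an interval that includes 1. Correction for GC content brought the difference of PHF1 from 0.25 to 0.10, that of MTF2 from -0.30 to -0.0002 and that of PHF19 from 0.07 to -0.08. That of AEBP2 came to -0.34.

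Canonical PRC1 joins a chromodomain protein, a ring finger protein and a polyhomeotic protein. None of its 8 expressed members was called, and 5 had differences below 0, with a median of -0.09. Of the chromodomain genes, whose proteins read methylated lysine 27, CBX8 was at 4.31 FPKM with the E2F6 shRNA and 2.95 FPKM with the control shRNA (1.46, 1.24 to 1.72). CBX2 was at 12.02 FPKM with the E2F6 shRNA and 10.2 FPKM with the control shRNA (1.18, 1.08 to 1.28). CBX6 was on the other side, at 2.66 FPKM with the E2F6 shRNA and 4.22 FPKM with the control shRNA, 1.59-fold lower (1.41 to 1.79). After correction for GC content CBX8 was at 0.28, CBX2 at 0.07 and CBX6 at -0.66. CBX7 was low in both, at 0.7502 and 0.976 FPKM in the E2F6 shRNA and control shRNA libraries.

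The ring finger genes of canonical PRC1 lay on opposite sides of 1. BMI1, also known as PCGF4, was at 4.97 FPKM (505 fragments) with the E2F6 shRNA and 6.84 FPKM (809 fragments) with the control shRNA, a ratio of 0.727 (0.649 to 0.813). PCGF2 was at 4.53 FPKM (608 fragments) with the E2F6 shRNA and 3.30 FPKM (515 fragments) with the control shRNA, a ratio of 1.37 (1.22 to 1.55). After correction for GC content BMI1 was at -0.06 and PCGF2 at 0.21 as log2(FPKM + 1) differences, which were -0.39 and 0.36 without it. PCGF2 shares 32.7% of its exon bases with CISD3 on the other strand, and BMI1 shares 23.3% with a read-through gene, so both values are uncertain, since strand counting is not stated and reads of a read-through gene cannot be told apart. PHC1, RBBP4, SETDB1 and PHC3 share 10.5 to 18.1% of their exon bases with a gene on the opposite strand. They are uncertain in the same way, to a degree that depends on the level of that gene. With the E2F6 shRNA and the control shRNA it was at 8.55 and 7.33 FPKM for PHC1 and 16.7 and 15.7 FPKM for SETDB1. For RBBP4 it was at 0.081 and 0.278 FPKM, and for PHC3 at 0 and 0.098 FPKM, in the same order. The polyhomeotic genes encode the subunits through which PRC1 complexes join up. PHC2 had 16.1 FPKM in the E2F6 shRNA library, against 17.2 FPKM in the control shRNA library. PHC3 was 1.67-fold lower (1.51 to 1.85), at 1.70 FPKM with the E2F6 shRNA and 2.83 FPKM with the control shRNA. PHC1, at 0.656 and 0.617 FPKM in the E2F6 shRNA and control shRNA libraries, and SCMH1, a PRC1-associated protein gene at 3.69 and 4.03 FPKM in the same order, had intervals that include 1.

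Non-canonical PRC1 carries RYBP or YAF2 in place of a chromodomain protein, and its genes lay mostly below 0. Of 8 expressed members, 7 had negative differences, with a median of -0.33, and none was called. PCGF3 was lowest, at 2.71 FPKM (615 fragments) with the E2F6 shRNA and 5.15 FPKM (1360 fragments) with the control shRNA, 1.90-fold lower (1.73 to 2.09) with a difference of -0.73. PCGF5, which forms near-identical complexes with it, was at 1.58 FPKM with the E2F6 shRNA and 2.63 FPKM with the control shRNA, 1.67-fold lower (1.46 to 1.91). Their partner AUTS2 was barely read, at 0.0369 FPKM with the E2F6 shRNA and 0.0317 FPKM with the control shRNA, which is 11 fragments in each library. RYBP was at 3.16 FPKM with the E2F6 shRNA and 4.40 FPKM with the control shRNA (0.718, 0.626 to 0.822), whereas YAF2 was at 0.640 and 0.547 FPKM in the E2F6 shRNA and control shRNA libraries. At a threshold of 1.5-fold on the log2(FPKM + 1) scale, PCGF3, AEBP2 and ASXL2 were the 3 members lower, against 9.33% of all genes, and DNMT3B the 1 higher, against 5.05%. By the FPKM ratio itself PCGF5, PHC3 and CBX6 were also past 1.5-fold lower, and UHRF1 and BAP1 past 1.5-fold higher. The share of all genes past 1.5-fold by that ratio was not computed, so these members cannot be set against a background. After correction for GC content PCGF5 was at -0.20 and RYBP at -0.05, and the median of the 8 was -0.20.

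The form of PRC1 built on PCGF1 is brought to unmethylated CpG islands by KDM2B. KDM2B was the 1 expressed non-canonical member above 0, at 1.94 FPKM with the E2F6 shRNA and 1.65 FPKM with the control shRNA (1.18, 1.05 to 1.32). Its difference of 0.15 was 0.01 after correction for GC content. PCGF1 was at 1.66 and 1.82 FPKM in the E2F6 shRNA and control shRNA libraries, and its interval of 0.700 to 1.19 includes 1. The corepressor BCOR was at 5.20 FPKM with the E2F6 shRNA and 6.60 FPKM with the control shRNA (0.789, 0.737 to 0.844). Its relative BCORL1 was at 2.01 FPKM with the E2F6 shRNA and 2.62 FPKM with the control shRNA (0.768, 0.682 to 0.863), and the ratio of ratios of the pair was 1.03, its interval of 0.896 to 1.18 including 1. The deubiquitinase USP7 was at 9.49 FPKM with the E2F6 shRNA and 12.6 FPKM with the control shRNA (0.751, 0.707 to 0.798).

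For both H3K27 demethylases a difference was not detectable at this depth. KDM6A had 9.69 FPKM in the E2F6 shRNA library, against 10.3 FPKM in the control shRNA library (0.937, 0.875 to 1.003). KDM6B had 3.49 FPKM in the E2F6 shRNA library, against 3.14 FPKM in the control shRNA library (1.11, 0.970 to 1.28). In the heterochromatin group, CBX1, which encodes HP1 beta, had 52.3 FPKM in the E2F6 shRNA library, against 43.01 FPKM in the control shRNA library (1.22, 1.15 to 1.28), and 5 processed pseudogenes are named after it. CBX5, which encodes HP1 alpha, was at 25.02 and 26.9 FPKM in the E2F6 shRNA and control shRNA libraries. TRIM28, the corepressor of zinc finger proteins, was at 35.8 and 32.8 FPKM, and the lysine 9 methyltransferase gene SETDB1 at 2.36 and 2.48 FPKM in the same order. None of the 4 passed the rule.

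Levels can be set between genes only on a common length. The deposited FPKM had been divided by the summed length of every distinct annotated exon, so that bases shared by overlapping exons counted more than once, and 37 of the 44 members came out in whole fragments at exactly that length. For comparison between genes the values were put back on the merged exon length of each gene, which does not alter the ratio between libraries. For PHF19, PCGF1, PCGF3, RYBP, AUTS2, ASXL1 and DNMT1 the shortest other length at which fragments came out whole was used. At a multiple of it their levels and fragment numbers would be multiplied and their counting intervals narrower, while the ratios between libraries would stay. Per merged exon length EZH2 was 6.98 times EZH1 in the E2F6 shRNA library and 10.8 times in the control shRNA library, a ratio of ratios of 0.644 (0.528 to 0.787). DNMT3B was 4.95 times DNMT3A in the E2F6 shRNA library and 1.58 times in the control shRNA library, a shift of 3.13-fold (2.74 to 3.57). On the same scale DNMT3B was at 19.98 in the E2F6 shRNA library and at 8.88 in the control shRNA library.

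On this scale other families kept or exchanged their leading gene. ASXL1 was 11.3 times ASXL2 in the E2F6 shRNA library and 3.23 times in the control shRNA library at the shorter of its lengths, and the shift between them was 3.52-fold (3.08 to 4.02) at that length. BMI1 was 0.681 times PCGF2 in the E2F6 shRNA library and 1.29 times in the control shRNA library (ratio of ratios 0.529, 0.448 to 0.624). PCGF2 was thus the higher of the 2 with the E2F6 shRNA and BMI1 with the control shRNA. On the deposited FPKM BMI1 was the higher in both libraries, at 4.97 against 4.53 with the E2F6 shRNA and 6.84 against 3.30 with the control shRNA. The exchange therefore rests on the merged exon lengths, and both genes share exon bases with another gene, as given above. Per merged exon length RYBP was 3.12 times YAF2 in the E2F6 shRNA library and 5.09 times in the control shRNA library (0.613, 0.473 to 0.795). PCGF5 was 0.50 times PCGF3 in the E2F6 shRNA library and 0.439 times in the control shRNA library, and the interval of this shift, 0.966 to 1.34, includes 1. CBX2 led the chromodomain genes and PHC2 the polyhomeotic genes in both libraries.

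**Figure D2:**
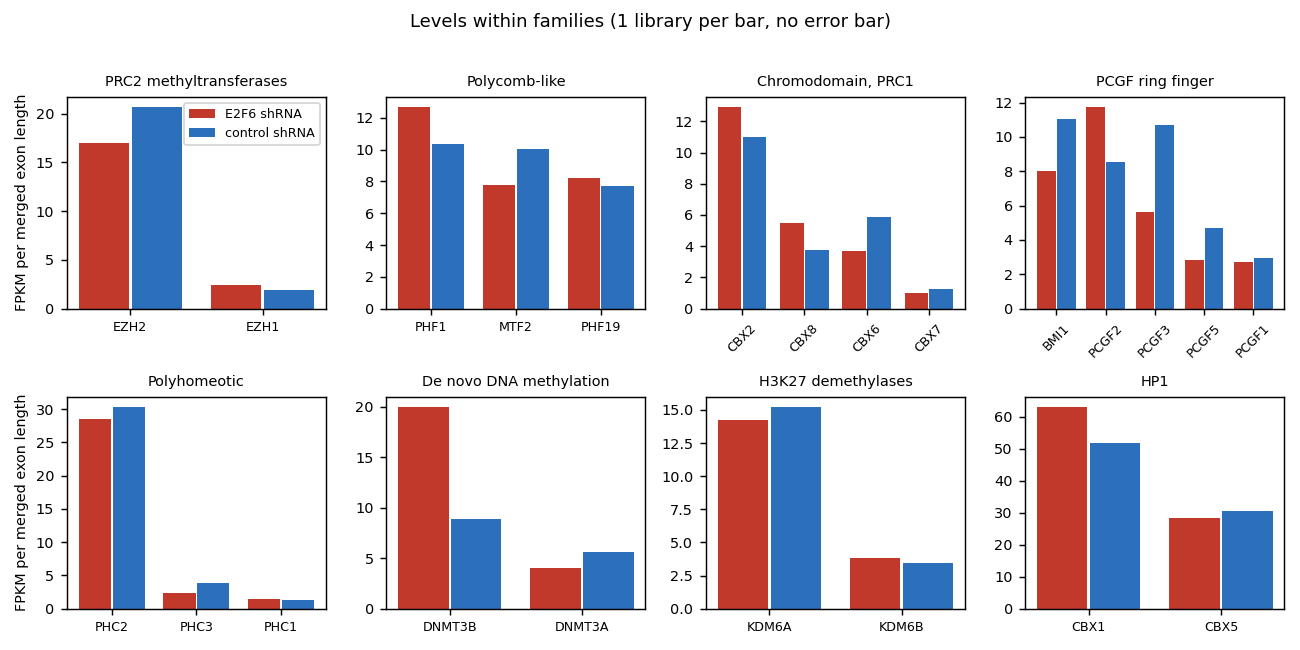
Bars give FPKM per merged exon length in the E2F6 shRNA library (left bar, red) and the control shRNA library (right bar, blue) for 8 gene families, each with an axis of its own from 0. DNMT3B stands at 19.98 with the E2F6 shRNA and 8.88 with the control shRNA, and PCGF2 is above BMI1 with the E2F6 shRNA and below it with the control shRNA. On the deposited FPKM PCGF2 is below BMI1 in both libraries.

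Differences across the members went with the GC content of their transcripts. Across 40 members the Spearman correlation of the difference with GC content was 0.52, and across 9900 expressed protein-coding genes it was 0.46, genes of one pair of libraries not being independent. The 20 members of lower GC content (37.7 to 51.7%) had a median difference of -0.30 with 17 below 0, and the 20 of higher GC content (52.01 to 62.4%) a median of 0.10 with 8 below 0. With the trend of all genes removed, ASXL2 was at -0.97 and DNMT3B at 0.92, both short of the rule, so no member was called. Of the 44 differences, 32 others moved by more than their counting interval. PCGF3 and CBX6, with GC contents of 57.4% and 59.4%, lay farther below 0 after the correction, at -0.88 and -0.66. EED, at 37.9% GC, moved to 0.41, and SUZ12, at 37.7%, to 0.09. The part of GC content in each difference was not tested beyond this correction.

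**Figure D3:**
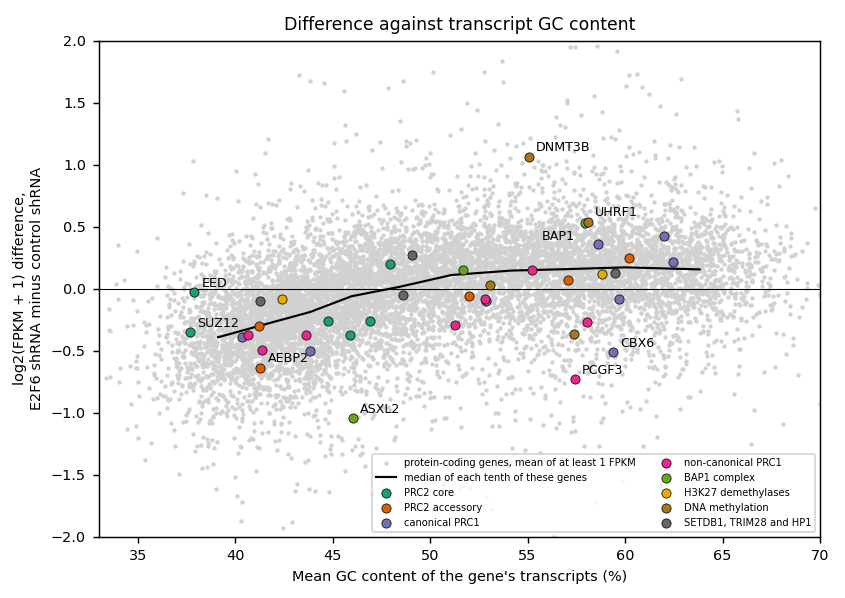
Each point is a gene, with the mean GC content of its transcripts on the x axis and its log2(FPKM + 1) difference, E2F6 shRNA minus control shRNA, on the y axis. Grey points are expressed protein-coding genes (mean of 1 FPKM or more), of which 30 lie beyond 2 in size and 37 outside the GC range drawn, and coloured points are the members by group. The median of the protein-coding genes is -0.39 in the tenth of lowest GC content and 0.16 in the tenth of highest, and with that trend removed ASXL2 (-0.97) and DNMT3B (0.92) lie farthest from 0 among the members.

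The members' merged exons were also longer than most, with a median of 7002 bases against 4964 bases for expressed protein-coding genes. The Spearman correlation of the difference with that length was -0.48 across the 40 members and -0.16 across the 9900 genes. With the mean FPKM it was 0.22 and 0.12 in the same order.

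Further genes of the pathway were taken from lists. Of 24 other expressed polycomb and H2A deubiquitinase genes, 0 were higher and 1 was lower by the rule, with 11 differences below 0 and a median of 0.04. The called gene was KDM1B, a lysine demethylase, at 1.51 FPKM with the E2F6 shRNA and 4.82 FPKM with the control shRNA, 3.19-fold lower (2.58 to 3.97). The other extreme was SCML2, a polycomb protein gene, with a difference of 0.76. Of 22 further DNA methylation, demethylation and reader genes none was called, ZBTB4 being highest at 0.98 and ZBTB33 lowest at -0.75, both genes of proteins that bind methylated DNA. Of 18 further lysine 9 methylation and heterochromatin genes none was called, and SUV39H1, a lysine 9 methyltransferase, was lowest at -0.88 and KDM4A, a demethylase, highest at 0.20. RNF2, the catalytic ring protein that most PRC1 forms share, had 2.99 FPKM in the E2F6 shRNA library, against 5.91 FPKM in the control shRNA library, and RING1, its relative, was at 21.7 and 18.7 FPKM in the same order.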

How the data were processed

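RNA from Huh7 cells was sequenced as 1 E2F6 shRNA and 1 control shRNA library. The FPKM unit of the 2 tables the authors deposited was read from the values, since their headers name only the gene and the sample. Per the submitters' processing notes, HISAT2 2.0.4 and StringTie 1.3.0 were used with GRCh37. Annotation release and strand counting are not given in the sources used here. Of 21227 rows, TGFB1 (no value) and 1 row of spilled text were dropped.

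For 97.9% of the values of genes with 1 transcript, FPKM times GENCODE release 29 exon length was a whole multiple of 1 step within 0.01, which gave the scaling totals. Of 18985 annotated genes above 0 in both libraries, 87.5% came out whole in both, within 0.0007 of a fragment, at the summed length of distinct exons. A further 11.4% did so at another length (0.4 to 2.5 times it, the shortest being taken), 7 of the members among them. Ratios were given exact conditional binomial 95% intervals, and ratios of ratios conditional odds-ratio intervals. GENCODE release 29 is on GRCh38 and gave only lengths, GC content, biotypes and overlaps.

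Differences are log2(FPKM + 1), E2F6 shRNA minus control shRNA. With 1 library per group no test was possible. All members are named, and of the other lists those past the rule of size or the extremes, with RNF2, RING1 and some marker genes added after their values were seen. Members and lists were chosen with earlier results of these data known. Also tried were a pseudocount of 0.1, no minimum or a minimum of 5 FPKM, median centring, quantile normalization, a trimmed-mean (TMM) factor, a lowess correction for GC content (span 0.3), a 1.5-fold threshold and, after the data were seen, FPKM per merged exon length. Procedures were tested on simulated data. Tools were scipy 1.17.1 and numpy 2.4.6 for intervals, statsmodels 0.14.6 for lowess, pandas 2.3.3 and, for figures, matplotlib 3.10.9, in Python 3.11.15.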

Additional observations from a re-analysis of the deposited data

How the results depend on the processing

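The calls of DNMT3B as higher and ASXL2 as lower held with a pseudocount of 0.1, without a minimum, after median centring, with the TMM factor and, chosen after seeing the data, per merged exon length. ASXL2 fell short under quantile normalization (-0.99) and the GC correction (-0.97), and DNMT3B under the GC correction (0.92). Members called lower were therefore 0 with these 2 settings and with a minimum of 5 FPKM, where 20 members were left and 11 were below 0, and members called higher were 0 with the GC correction. With the 1.5-fold threshold on the log2(FPKM + 1) scale 3 were lower. The cause was not tested. The GC correction reversed the sign of 8 expressed members (CBX5, DNMT1, EED, KDM6A, KDM6B, PHF19, SUZ12 and TRIM28) and quantile normalization that of EED and SETDB1, none of them called. The TMM factor and quantile normalization put the median of all genes at 0.03 each. Depth limits AUTS2 most, with 11 fragments per library. No paired analysis was possible because there is only 1 library in either group.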
